A study of Homo sapiens with 2 samples.

Results

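NFE2L2, which encodes the transcription factor NRF2, its inhibitor KEAP1 and 7 genes that NRF2 is known to switch on (GCLC, GCLM, TXNRD1, SRXN1, PGD, NQO1 and HMOX1) were followed in TPC-1 thyroid cancer cells after an siRNA against XPR1. These 9 genes were taken by name from a table of 58884 genes, and all 9 were present. TPC-1 is a human papillary thyroid carcinoma line that expresses the RET receptor fused to CCDC6. One library came from TPC-1 cells transfected with an siRNA against XPR1, the phosphate exporter of human cells, and the other from TPC-1 cells transfected with a control siRNA. With 1 library per group there is no replicate, the conditions were not tested and no p-value is given, so that higher and lower describe these 2 libraries alone.

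In unstressed cells KEAP1, an adaptor of a CUL3 ubiquitin ligase, holds NRF2 and has it degraded by the proteasome. Oxidants and electrophiles that modify cysteines of KEAP1 let NRF2 escape, pair with a small MAF protein and bind antioxidant response elements near genes for glutathione synthesis, the thioredoxin system, NADPH supply, quinone reduction and heme breakdown. The control of NRF2 is thus largely at the level of the protein, which was not measured here, and transcript levels of NFE2L2 and KEAP1 do not give NRF2 activity. In thyroid follicular cells, which make hydrogen peroxide for hormone synthesis, the same enzymes guard against that oxidant.

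XPR1 itself was 5.31 TPM in the XPR1-siRNA library and 39.2 TPM in the control library, so that 13.5% of the control level was left. Values are TPM, the length-corrected share of all transcripts of a library, and the libraries held about 15150000 (XPR1 siRNA) and 15780000 (control siRNA) counted reads. Of the thyroid markers, PAX8 was present at 408.6 TPM after XPR1 siRNA and 588.1 TPM after control siRNA, while NKX2-1, TSHR and SLC5A5 were listed at 0 in both libraries and TG was 0.929 TPM after XPR1 siRNA and 1.06 TPM after control siRNA. The thyroid factors FOXE1 (13.7 TPM after XPR1 siRNA and 11.1 TPM after control siRNA) and HHEX (12.3 TPM after XPR1 siRNA and 13.0 TPM after control siRNA) were present. The epithelial keratins KRT8 and KRT18 had TPM ratios of 0.743 and 0.692, KRT7 was 3.27-fold lower at 3.39 TPM after XPR1 siRNA and 11.1 TPM after control siRNA, and EPCAM was listed at 0 in both. The 6 expressed thyroid and epithelial markers had a median difference of -0.47 on the log2 scale. Of 13 markers of leukocytes, endothelium, fibroblasts and neuroendocrine cells, 2 reached a mean of 1 TPM, and the list summed to 8.79 TPM after XPR1 siRNA and 3.25 TPM after control siRNA. Most of the sum after XPR1 siRNA was COL1A1, at 6.67 TPM after XPR1 siRNA and 1.04 TPM after control siRNA, while PECAM1 was 0.859 TPM after XPR1 siRNA and 1.47 TPM after control siRNA. Of the other fibroblast markers, DCN was listed at 0 in both, and COL1A2 and PDGFRA were listed at 0 after XPR1 siRNA and were 0.0637 and 0.124 TPM after control siRNA. The part of these identity and cell type markers in the results below was not tested. In RNA from a whole culture, fewer cells that express a gene and less RNA per cell cannot be told apart.

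Among the 9 genes, HMOX1 and PGD were at least 1.5-fold higher in the XPR1-siRNA library, TXNRD1 was at least 1.5-fold lower, and the other 6 lay within 1.5-fold. Differences are of log2(TPM + 1), XPR1 siRNA minus control siRNA, compared for genes that averaged 1 TPM or more over both libraries. The 2 higher genes of 9 stand beside 21.7% of all 16319 genes compared and 20.7% of the 11698 protein-coding ones. The 1 lower gene of 9 stands beside 16.6% of all genes and 11.1% of protein-coding genes. These shares are near the background, so the counts set the 9 genes apart from other genes in neither direction. Their median difference was 0.10 on the log2 scale, against 0.05 for all genes compared and 0.10 for protein-coding genes.

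**Figure D1:**
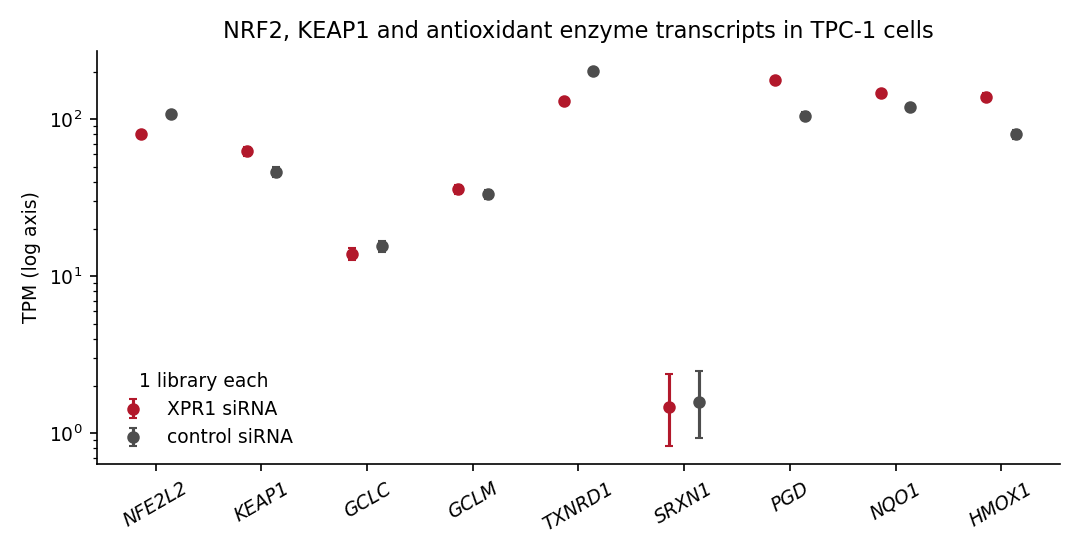
TPM on a log axis of the 9 genes in the XPR1-siRNA library (red) and the control library (grey), 1 library each; bars are exact Poisson 95% intervals and cover counting error only. HMOX1, PGD, NQO1 and KEAP1 were higher in the XPR1-siRNA library and TXNRD1 and NFE2L2 lower, while SRXN1 lay below 2 TPM in both.

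The promoters of 4 of these genes hold the letters of the core of the antioxidant response element near a start site. The differences of these 4 genes ran from -0.63 (TXNRD1) to 0.74 (PGD). The part of the core in these differences was not tested. RefSeq windows on GRCh38.p14, from 250 bases before to 50 after an annotated start, were at hand for 8 of the 9 genes, in 11 windows, and not for HMOX1. The letters TGACNNNGC were searched on both strands. They occurred in PGD, GCLM, TXNRD1 and KEAP1, in 5 of the 11 windows, against 13.3% of the 35116 windows of all genes. Counted by gene, that is 4 of 8, against 16.1% of 27305 genes, for genes picked as known NRF2 targets or regulators. A match describes these letters and is not a bound site, and windows without a match (NFE2L2, GCLC, NQO1, SRXN1) say nothing of elements farther away. Each stretch of 120 bases below is upstream of a start, on the strand of the gene, with the match in capitals. Where the match is on the other strand, the capitals read as its reverse complement.
PGD, chr1:10398814-10398933, plus strand: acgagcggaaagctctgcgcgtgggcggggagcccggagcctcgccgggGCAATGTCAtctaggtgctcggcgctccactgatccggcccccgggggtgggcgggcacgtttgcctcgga
GCLM, chr1:93909431-93909550, minus strand: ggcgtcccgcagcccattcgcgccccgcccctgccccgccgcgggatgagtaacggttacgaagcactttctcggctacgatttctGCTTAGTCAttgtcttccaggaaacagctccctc
TXNRD1, outer start, chr12:104215659-104215778, plus strand: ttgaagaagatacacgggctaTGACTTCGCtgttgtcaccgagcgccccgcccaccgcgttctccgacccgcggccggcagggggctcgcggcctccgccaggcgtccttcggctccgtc
TXNRD1, inner start, chr12:104286912-104287031, plus strand: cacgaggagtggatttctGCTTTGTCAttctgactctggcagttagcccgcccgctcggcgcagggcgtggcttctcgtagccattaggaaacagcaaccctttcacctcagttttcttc
KEAP1, inner start, chr19:10502772-10502891, minus strand: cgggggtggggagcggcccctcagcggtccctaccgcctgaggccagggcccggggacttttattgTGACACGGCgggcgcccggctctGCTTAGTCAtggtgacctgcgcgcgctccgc

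GCLM and KEAP1 held the same match, TGACTAAGC, on the strand opposite to the gene, from 34 and 31 bases before the start. The inner TXNRD1 window held TGACAAAGC from 102 bases before the start, and the PGD window TGACATTGC from 201 bases before it. The outer TXNRD1 window had a second match, TGACGGAGC, that begins 8 bases before the start and runs across it, and which is not in capitals. A deposited value sums all transcripts of a gene, so the 2 starts of TXNRD1 cannot be followed apart.

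NFE2L2 (ENSG00000116044, chromosome 2, 177227595 to 177392697, minus strand of GRCh38) had 80.0 TPM in the XPR1-siRNA library and 109 TPM in the control library. The TPM ratio of 0.737 had a 95% Clopper-Pearson interval of 0.695 to 0.782, from about 1943 and 2739 reads, which covers counting error only, as do all intervals below. NFE2L2 was therefore lower by more than counting error, but by less than 1.5-fold, and 1908 of the protein-coding genes compared had a lower difference. Of its 5979 exonic bases, 1250 are also exonic in other genes, and how reads there were assigned is not given in the sources used here.

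KEAP1 (ENSG00000079999, chromosome 19, 10486120 to 10503741, minus strand) had 62.5 TPM in the XPR1-siRNA library and 46.2 TPM in the control library. Its ratio was 1.35 (interval 1.23 to 1.49), higher by more than counting error and again by less than 1.5-fold. The transcripts of the factor and of its inhibitor thus lay on opposite sides of control. NFE2L2 stood at 1.28 times the TPM of KEAP1 in the XPR1-siRNA library (approximate interval 1.19 to 1.38), against 2.35 times in the control library (2.17 to 2.55).

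Glutamate-cysteine ligase makes the first and rate-limiting step of glutathione synthesis, with GCLC as the catalytic and GCLM as the modifier subunit. GCLC (ENSG00000001084, chromosome 6, 53497341 to 53616970, minus strand) had 13.8 TPM in the XPR1-siRNA library and 15.5 TPM in the control library. GCLM (ENSG00000023909, chromosome 1, 93885205 to 93909456, minus strand) had 35.8 TPM in the XPR1-siRNA library and 33.2 TPM in the control library. With the TPM as deposited, neither subunit differed beyond counting error, with ratios of 0.891 (0.787 to 1.01) for GCLC and 1.08 (0.973 to 1.19) for GCLM. These intervals still allow a ratio as low as 0.787 for GCLC and as high as 1.19 for GCLM, but not a 1.5-fold difference of either within these libraries. For GCLC this depends on scaling, since its interval only just includes 1. Its log2 difference was -0.16 as deposited and -0.22 under trimmed-mean scaling. Per length, the modifier was the more abundant subunit in both, at 2.59 times the TPM of GCLC after XPR1 siRNA and 2.14 times after control siRNA, with intervals that overlap (2.31 to 2.90 and 1.92 to 2.39).

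TXNRD1 (ENSG00000198431, chromosome 12, 104215779 to 104350305, plus strand) encodes the cytosolic thioredoxin reductase, the selenoprotein that passes electrons from NADPH to thioredoxin. It had 131 TPM in the XPR1-siRNA library and 202 TPM in the control library, from about 3555 and 5716 reads. It was 1.55-fold lower (1.48 to 1.61), with a difference of -0.63 on the log2 scale, and its counting interval includes 1.5-fold. TXNRD1 ranked 1162nd from the lowest of 11698 protein-coding genes. In the control library TXNRD1 was the most abundant of the 9 transcripts, and in the XPR1-siRNA library it was the fourth.

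SRXN1 (ENSG00000271303, chromosome 20, 646615 to 653370, minus strand) encodes sulfiredoxin, which repairs over-oxidised peroxiredoxins. It had 1.46 TPM in the XPR1-siRNA library and 1.58 TPM in the control library, from 16 and 18 reads. No difference was detectable at this depth, since the ratio of 0.924 has an interval of 0.441 to 1.92. In addition, 2292 of the 2698 exonic bases of SRXN1 are exonic in a protein-coding gene on the same strand, AL121758.1, which had 0.0908 TPM after XPR1 siRNA and 0.0873 TPM after control siRNA. Reads in the shared bases cannot be given to either gene alone, so the SRXN1 value may cover only part of its transcript.

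PGD (ENSG00000142657, chromosome 1, 10398592 to 10420144, plus strand) encodes 6-phosphogluconate dehydrogenase, an NADPH-yielding enzyme of the pentose phosphate pathway. It had 177 TPM in the XPR1-siRNA library and 105 TPM in the control library, a ratio of 1.68 (1.57 to 1.80) and a difference of 0.74 on the log2 scale. Its whole interval lies above 1.5-fold. PGD was the most abundant of the 9 in the XPR1-siRNA library and the fourth in the control library, changing places with TXNRD1.

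NQO1 (ENSG00000181019, chromosome 16, 69706996 to 69726951, minus strand), the quinone reductase that is a common marker of NRF2 activity, had 146 TPM in the XPR1-siRNA library and 119 TPM in the control library. The ratio of 1.22 (1.14 to 1.31) was above counting error and below 1.5-fold. Of its 3254 exonic bases, 575 are exonic in an antisense gene listed at 0 in both libraries. HMOX1 (ENSG00000100292, chromosome 22, 35380361 to 35394214, plus strand), the inducible heme oxygenase that opens the heme ring and frees iron, carbon monoxide and biliverdin, had 138 TPM in the XPR1-siRNA library and 80.0 TPM in the control library. HMOX1 had the largest difference of the 9, 0.78 on the log2 scale with a ratio of 1.73 (1.59 to 1.89), and ranked 1578th from the highest of 11698 protein-coding genes. HMOX1 transcription also answers to heme through BACH1 and to other stress factors, as background.

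**Figure D2:**
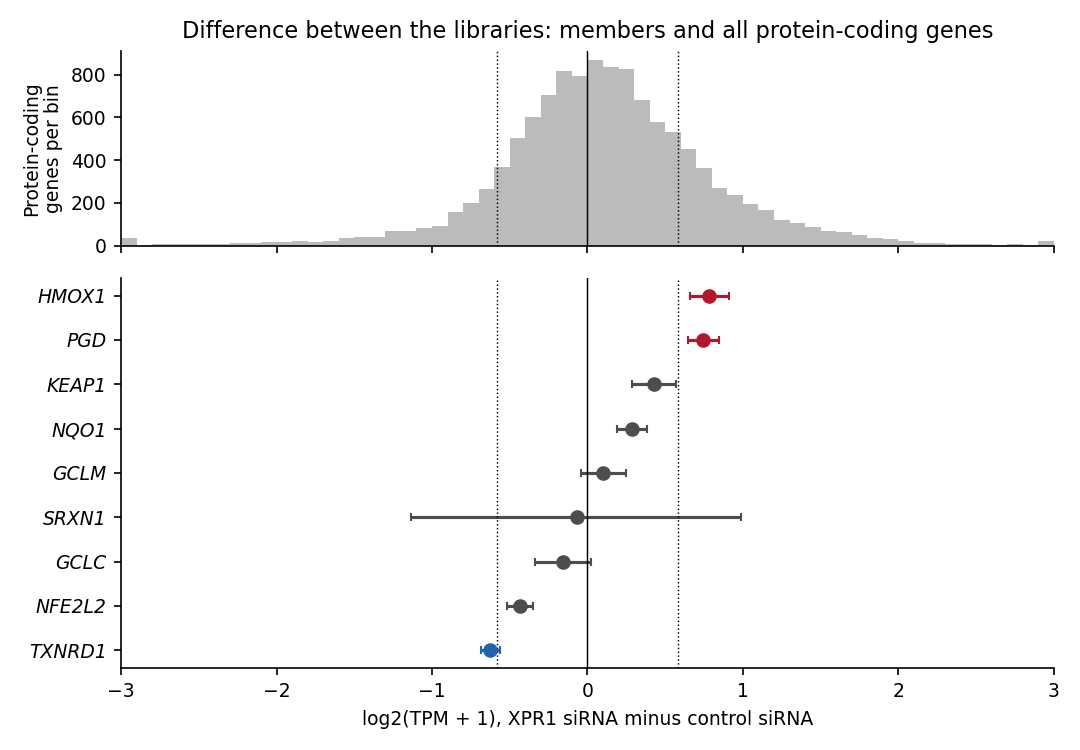
Lower panel, difference of log2(TPM + 1), XPR1 siRNA minus control siRNA, for each of the 9 genes, with bars for the width of the 95% Clopper-Pearson interval of the TPM ratio; upper panel, the same difference for 11698 protein-coding genes in bins of 0.1, with values beyond 3 in the end bins. Dotted lines mark 1.5-fold; HMOX1 (0.78), PGD (0.74) and TXNRD1 (-0.63) lie outside them, and the bar of SRXN1 spans both.

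By level, the order in the XPR1-siRNA library was PGD, NQO1, HMOX1, TXNRD1, NFE2L2, KEAP1, GCLM, GCLC and SRXN1. In the control library it was TXNRD1, NQO1, NFE2L2, PGD, HMOX1, KEAP1, GCLM, GCLC and SRXN1. Counting intervals of neighbours overlapped for NQO1 and HMOX1 and for HMOX1 and TXNRD1 in the XPR1-siRNA library, and for NFE2L2 and PGD in the control library. The 4 lowest kept their places, and the reordering concerned the upper 5. Across 2 libraries the likeness of one gene's pattern to another's is a single ratio, so no gene is named for it.

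To place the 9 genes among others of the same pathways, 8 lists with 145 further genes were examined, of which 121 reached a mean of 1 TPM. Of these 121, 47 were at least 1.5-fold higher in the XPR1-siRNA library (38.8%, beside 21.7% of all genes and 20.7% of protein-coding ones) and 19 at least 1.5-fold lower (15.7%, beside 16.6% of all genes and 11.1% of protein-coding ones). The median difference was 0.38 on the log2 scale. The lists were chosen with earlier results of these data known, so these shares describe the lists and are no independent evidence. Among all protein-coding genes, the shortest of 3 length classes had 25.5% higher and the longest 16.9%, and with the trend on gene length removed the counts among the 121 were 45 higher and 20 lower. By list, the number above 0 ran from 8 of 19 to 9 of 11. The genes named from each list are the 3 with the largest differences at a mean of at least 5 TPM, and any other list gene named was added after its value was seen.

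Of 19 expressed genes that degrade NRF2 or share its binding sites, 5 were lower, 2 higher and 12 within 1.5-fold, with a median of -0.11. The share lower is 26.3%, beside 16.6% of all genes and 11.1% of protein-coding ones. The 2 higher genes of 19 stand beside 21.7% of all genes and 20.7% of protein-coding ones. The small MAF partner MAFF was 8.65 TPM after XPR1 siRNA and 39.1 TPM after control siRNA. NFE2L1, the related factor that drives proteasome genes, was 193 TPM after XPR1 siRNA and 474 TPM after control siRNA, 2.45-fold lower (2.37 to 2.54). SQSTM1, the autophagy receptor p62 that draws KEAP1 into autophagosomes and is itself an NRF2 target, was 94.2 TPM after XPR1 siRNA and 203 TPM after control siRNA, 2.15-fold lower (2.06 to 2.25). All 3 genes are on the lower side, as were, chosen after their values were seen, the partner MAFG (35.0 TPM after XPR1 siRNA and 69.8 TPM after control siRNA) and BACH1, the heme-regulated repressor that competes for the same elements (19.5 TPM after XPR1 siRNA and 35.5 TPM after control siRNA, 1.82-fold lower). The ligase scaffold CUL3, also chosen so, was 33.2 TPM after XPR1 siRNA and 34.6 TPM after control siRNA, and the 2 higher genes, the ligase subunit RBX1 and the KEAP1-binding peptidase DPP3, were 1.91-fold (1.62 to 2.25) and 1.54-fold (1.35 to 1.75) higher.

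Of 14 expressed genes of glutathione synthesis and recycling, 3 were higher and 4 lower, with a median of 0.32. The share higher, 21.4%, is near that of all genes. The share lower is 28.6%, beside 16.6% of all genes and 11.1% of protein-coding ones. SLC7A11, the cystine importer that supplies cysteine for glutathione, was 11.1 TPM after XPR1 siRNA and 72.1 TPM after control siRNA, 6.49-fold lower (5.86 to 7.19). Its heavy chain SLC3A2 was 97.6 TPM after XPR1 siRNA and 249 TPM after control siRNA, and CHAC1, which degrades glutathione, was 8.37-fold lower (6.89 to 10.3). These 3 genes lay far below GCLC and GCLM in their difference, and the cause was not tested. Chosen after their values were seen, glutathione synthetase GSS was 50.9 TPM after XPR1 siRNA and 50.4 TPM after control siRNA, and glutathione reductase GSR, a known NRF2 target, was 141 TPM after XPR1 siRNA and 82.1 TPM after control siRNA, 1.71-fold higher (1.60 to 1.84).

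Glutathione transferases lay mostly on the higher side, with 7 of 10 expressed members at least 1.5-fold higher, none lower and a median of 0.93. The share higher, 70%, stands beside 21.7% of all genes, while 16.6% of all genes were lower. GSTP1, the main cytosolic transferase of many carcinomas, was 324 TPM after XPR1 siRNA and 152 TPM after control siRNA, 2.13-fold higher (1.99 to 2.28). The microsomal MGST2 and MGST3 were 2.19-fold (1.75 to 2.77) and 2.08-fold (1.90 to 2.28) higher. Of the other 7 listed genes, 6 lay below a mean of 1 TPM, and GSTT1 was not analysed here. The higher members held cytosolic and membrane enzymes alike, and GSTM4 and GSTT2B among them, named with their values known, have close copies between which reads can be split. GSTT2B rests on 12 reads after XPR1 siRNA and 1 read after control siRNA.

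Of 23 expressed genes of the thioredoxin and peroxiredoxin system, 9 were higher and 3 lower, with a median of 0.38. That is 39.1% and 13.0%, beside 21.7% and 16.6% of all genes and 20.7% and 11.1% of protein-coding ones. TXNIP, which binds and inhibits thioredoxin, was 312 TPM after XPR1 siRNA and 47.1 TPM after control siRNA, 6.63-fold higher (6.13 to 7.18). The stress-induced sestrin SESN2 was 51.2 TPM after XPR1 siRNA and 336 TPM after control siRNA, while its relative SESN1, a p53 target, was 10.8 TPM after XPR1 siRNA and 4.49 TPM after control siRNA. The sestrins thus lay on opposite sides. Chosen after their values were seen, the peroxiredoxins PRDX1 and PRDX2, which reduce peroxides with electrons from thioredoxin, were 2.15-fold (2.04 to 2.26) and 2.07-fold (1.83 to 2.34) higher, and PRDX1 has pseudogene copies that can share its reads. Thioredoxin itself, TXN, also chosen so, was 473 TPM after XPR1 siRNA and 347 TPM after control siRNA, and stood at 3.62 times the TPM of TXNRD1 after XPR1 siRNA against 1.72 times after control siRNA. TXN lay within 1.5-fold, as did the peroxiredoxins PRDX5 (ratio 1.30) and PRDX6 (1.20). OSGIN1, an NRF2 target chosen for its value, was 5.01 TPM after XPR1 siRNA and 10.8 TPM after control siRNA.

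**Figure D3:**
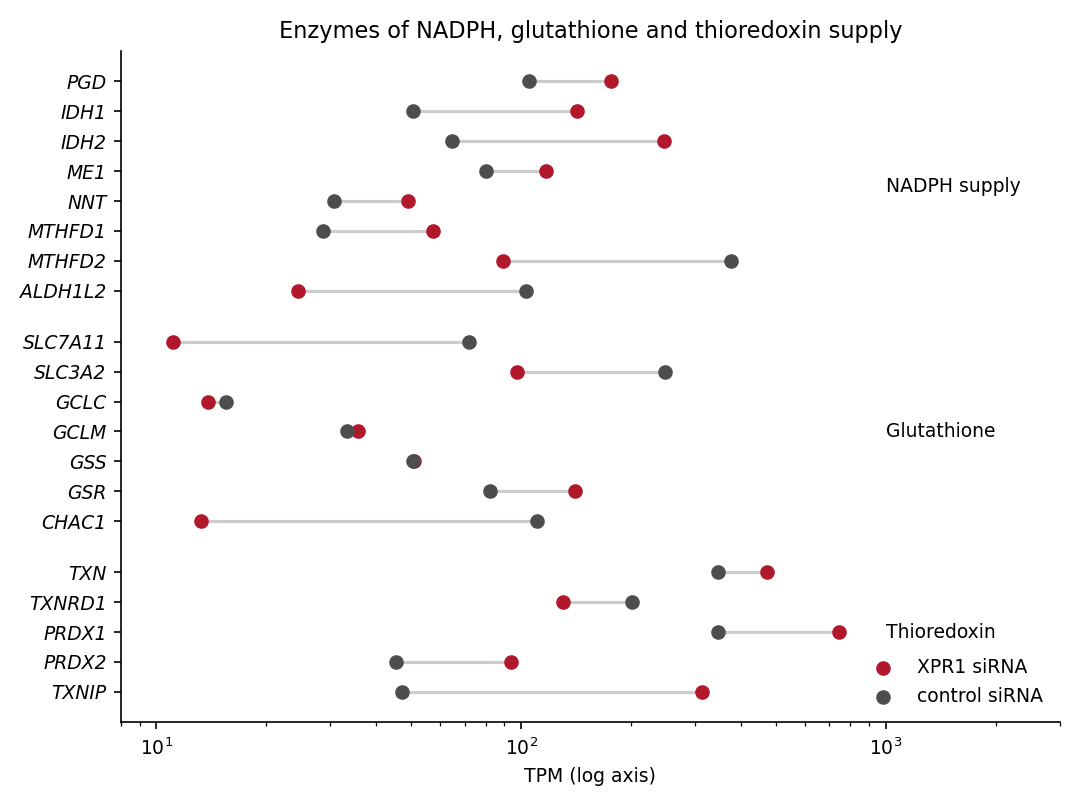
TPM on a log axis of selected genes of NADPH, glutathione and thioredoxin supply in the XPR1-siRNA library (red) and the control library (grey), 1 library each, with a line joining the values of a gene. PGD, IDH1 and IDH2 were higher after XPR1 siRNA, MTHFD2, ALDH1L2, SLC7A11 and CHAC1 lower, and GCLC, GCLM and GSS near control; genes were picked for the plot after their values were seen.

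Of 16 expressed genes of NADPH supply, 4 were higher and 2 lower, with a median of 0.28. These 25% and 12.5% are near the 21.7% and 16.6% of all genes and the 20.7% and 11.1% of protein-coding ones. IDH2, the mitochondrial isocitrate dehydrogenase that yields NADPH, was 246 TPM after XPR1 siRNA and 64.8 TPM after control siRNA, 3.80-fold higher (3.51 to 4.12). The mitochondrial folate enzymes were the 2 lower genes, MTHFD2 at 89.0 TPM after XPR1 siRNA and 376 TPM after control siRNA, and ALDH1L2 at 24.4 TPM after XPR1 siRNA and 103 TPM after control siRNA. MTHFD2 was 4.23-fold lower (4.01 to 4.46) and ALDH1L2 4.24-fold lower (3.93 to 4.57). The cytosolic folate enzyme MTHFD1 was on the other side, 2.00-fold higher (1.86 to 2.15), as was the mitochondrial transhydrogenase NNT at 1.60-fold (1.48 to 1.73), both named after their values were seen. The cytosolic IDH1, picked once its value was known, was 2.81-fold higher (2.62 to 3.03). In the pentose phosphate pathway, where PGD acts, the lactonase PGLS, and TKT and TALDO1 of the non-oxidative branch, all picked likewise, lay within 1.5-fold at ratios of 0.855, 1.36 and 1.23.

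Of 21 expressed genes of quinone and carbonyl detoxification besides NQO1, 11 were higher and 3 lower, with a median of 0.64. The shares are 52.4% and 14.3%, beside 21.7% and 16.6% of all genes and 20.7% and 11.1% of protein-coding ones. Carbonyl reductase CBR1 was 20.5 TPM after XPR1 siRNA and 5.90 TPM after control siRNA, 3.48-fold higher (2.60 to 4.71). Aldose reductase AKR1B1 was 3297 TPM after XPR1 siRNA and 1605 TPM after control siRNA, the most abundant gene of the list in both libraries, and the aldehyde reductase AKR1A1 was 1.96-fold higher (1.77 to 2.18). The human NRF2 targets of the AKR family lay on both sides. AKR1B10 was 3.61 TPM after XPR1 siRNA and 0.936 TPM after control siRNA, 3.86-fold higher from 26 and 7 reads, with a lower bound of 1.63. AKR1C2 was listed at 0 in both libraries, AKR1C1 was 0.0281 TPM after XPR1 siRNA and 0.135 TPM after control siRNA, and AKR1C3 was 19.0 TPM after XPR1 siRNA and 37.3 TPM after control siRNA, 1.97-fold lower (1.73 to 2.24). All 4 were picked with their values known, and the AKR1C genes are close in sequence and can share reads.

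In the list named for heme breakdown and iron storage, besides HMOX1, 7 of 11 genes were higher, none lower, and the median was 0.71. The list also holds genes of heme synthesis (FECH, ALAS1) and of heme or iron transport (SLC48A1, FLVCR1, SLC40A1, TFRC). Its shares are therefore not those of breakdown and storage genes alone. The 63.6% higher stand beside 21.7% of all genes, while 16.6% of all genes were lower. SLC48A1, which carries heme out of the lysosome, was 28.1 TPM after XPR1 siRNA and 8.06 TPM after control siRNA, 3.49-fold higher (2.94 to 4.18). Biliverdin reductase BLVRA, which works directly after HMOX1, was 78.3 TPM after XPR1 siRNA and 40.1 TPM after control siRNA. The ferritin light chain FTL, an NRF2 target, was 7597 TPM after XPR1 siRNA and 3843 TPM after control siRNA, 1.98-fold higher (1.94 to 2.02). The heavy chain FTH1, chosen for its value, was on the lower side within 1.5-fold, at 1375 TPM after XPR1 siRNA and 2005 TPM after control siRNA, and FTL stood at 5.53 times the TPM of FTH1 after XPR1 siRNA against 1.92 times after control siRNA. Both ferritin genes have many pseudogene copies, which makes their values uncertain.

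Of 7 expressed superoxide and peroxide genes, 4 were higher and 2 lower, with a median of 0.64. In this short list that is 57.1% and 28.6%, beside 21.7% and 16.6% of all genes and 20.7% and 11.1% of protein-coding ones. Catalase, CAT, was 140 TPM after XPR1 siRNA and 40.0 TPM after control siRNA, 3.49-fold higher (3.18 to 3.82). Cytosolic superoxide dismutase SOD1 was 243 TPM after XPR1 siRNA and 127 TPM after control siRNA. Mitochondrial SOD2, which NF-kB also induces, was 600 TPM after XPR1 siRNA and 1326 TPM after control siRNA, 2.21-fold lower (2.18 to 2.24). The cytosolic and the mitochondrial dismutase therefore lay on opposite sides of control, and the thyroid peroxide-making oxidases DUOX1 and DUOX2, chosen after their values were seen, were at most 1.21 TPM in either library. Other oxidase genes of the list, also chosen so, were expressed and lay on both sides. NOX5 was 57.3 TPM after XPR1 siRNA and 36.3 TPM after control siRNA. CYBA was 173 TPM after XPR1 siRNA and 302 TPM after control siRNA.

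**Figure D4:**
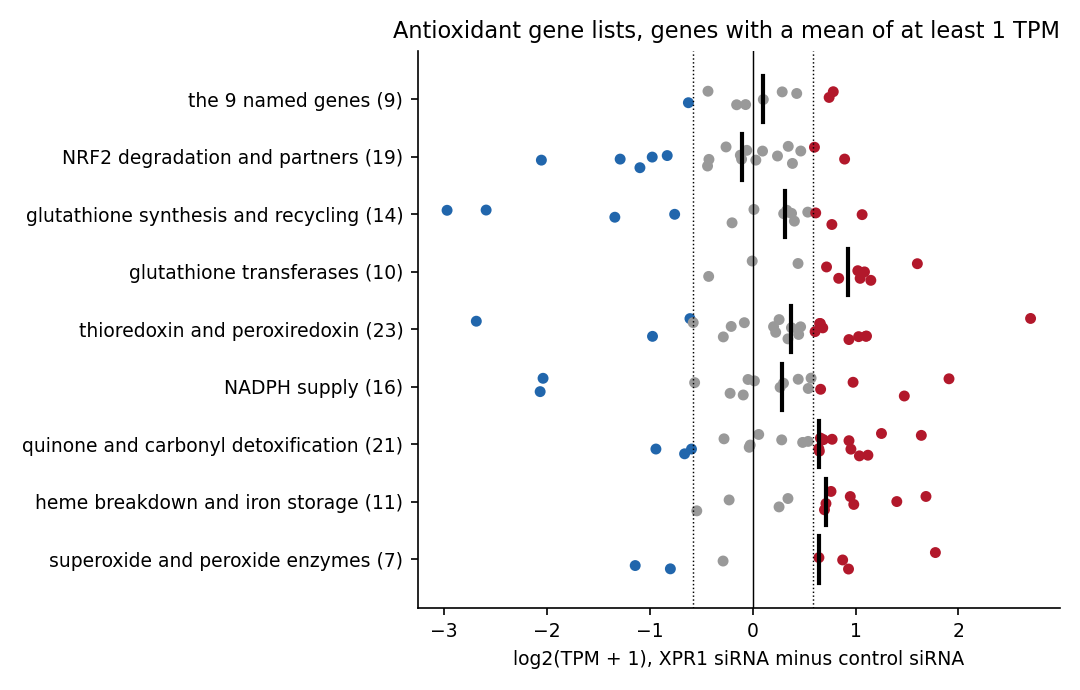
Difference of log2(TPM + 1), XPR1 siRNA minus control siRNA, for each gene that averaged 1 TPM or more in the 9 genes and the 8 pathway lists (number of genes in brackets); red is at least 1.5-fold higher, blue at least 1.5-fold lower, and black bars are list medians. Medians ran from -0.11 for degradation and partners to 0.93 for glutathione transferases, with 0.10 for the 9 genes.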

How the data were processed

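RNA of 2 TPC-1 libraries was compared, 1 per group, grouped by the labels. Per the labels' protocols, RNA came from RNeasy Plus kits and libraries from a TruSeq kit (v2) that does not mark strand. Trimmomatic 0.38 and featureCounts 2.0.0 on GRCh38 are named, with FastQC and MultiQC, in the submitters' processing notes. Which aligner and annotation release served is not given in the sources used here. In 1 table, the authors deposited TPM values for 58884 Ensembl genes. Symbols matched 58472 identifiers, and lengths came from GENCODE 29 (58611 identifiers).

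Differences are of log2(TPM + 1), which understates those of low genes. Genes averaging 1 TPM or more were compared, and 1.5-fold was the threshold. TPM times gene length fell within 0.01 of whole multiples of 1 step for 92.5% (XPR1 siRNA) and 92.4% (control siRNA) of genes with up to 10 reads, and for 71.7% and 72.1% of all genes. Reads recovered so gave exact Poisson and Clopper-Pearson intervals at 95%. They are approximate for 7 of the 9 members, with reads that were not whole. Intervals of a ratio between 2 genes used a normal approximation on the log scale. Intervals cover counting error only. PCR copies were not marked by molecular identifiers, so the intervals can be too narrow even for that. The method was tested on simulated data. The simulated reads held counting error only, so that test says nothing of variation between replicate libraries.

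The members and lists were chosen with earlier results of these data known. Named genes were XPR1, the 9 members and the 3 genes with the largest difference at a mean of at least 5 TPM in each of 8 pathway lists. Identity markers came from a list, and all other genes in the text were picked after their values were seen. Some genes of these pathways are not reported here. Python 3.11.15, scipy 1.17.1 and statsmodels 0.14.6 were used. Alternatives were other pseudocounts, floors and scalings, protein-coding genes only, omission of mitochondrial genes and removal of trends.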

Additional observations from a re-analysis of the deposited data

How the results depend on the processing

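Under 11 alternatives, HMOX1 and PGD stayed at least 1.5-fold higher, TXNRD1 at least 1.5-fold lower and the other 6 genes within 1.5-fold, with 1 exception, SRXN1, which a floor of 5 TPM removes. The alternatives were pseudocounts of 0.1 and 5, a floor of 5 TPM or none, scaling by upper quartile, median of ratios or trimmed mean, protein-coding genes only, omission of mitochondrial genes, and removal of a trend on gene length or on level (fraction 0.3). Trimmed-mean scaling and both trend removals were chosen after seeing the data. The difference ranged from 0.71 to 0.79 for HMOX1, from 0.67 to 0.75 for PGD, from -0.70 to -0.61 for TXNRD1, from -0.50 to -0.42 for NFE2L2 and from 0.36 to 0.45 for KEAP1. The value of TXNRD1 under trimmed-mean scaling (-0.70) moved beyond its counting interval, since that scaling lowers all log2 ratios by 0.07. No gene of the 9 changed sign under any alternative. Of the pathway genes, 40 to 48 were higher and 16 to 22 lower, of 112 to 136 compared, while the share of all genes ran from 12.7% to 24.9% higher and from 9.10% to 19.2% lower. No paired analysis was possible because there is 1 library per group, which also leaves no replicate to omit. SRXN1 rests on 16 and 18 reads.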
